A study of Mus musculus with 19 samples.

Results

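The B6 allele of PRDM9 was followed in 2 sterile hybrids that differ in the other parent. In B6/SPRT mice (B6SPRTF1, wild-type Prdm9 alleles B6 and SPRT) the second genome came from SPRET/EiJ, an inbred strain of the Algerian mouse, Mus spretus, used as the father. In STUS/B6 mice (wild-type Prdm9 alleles STUS and B6) it came from STUS/Jpia, a strain of Mus musculus musculus, whereas B6 (C57BL/6J) is largely of Mus musculus domesticus. DNA breaks were mapped in whole testis of adult males by DMC1 SSDS, with 1 library per genotype, and the number of animals behind a library is not given in the sources used here. B6 comes first in the sample titles of either cross, while the study's text writes the second as STUSB6F1, so which parent was the mother of STUS/B6 is not settled here. The members are the autosomal hotspots, from the authors' 1 table per genotype, that the authors attributed to the B6 allele: 4122 in B6/SPRT and 6115 in STUS/B6, which is 10237 of 74327 hotspot entries in the 5 tables of the series. Hotspots of the crosses were paired when their centers were mutually nearest and within 500 bp.

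PRDM9 is a histone methyltransferase of meiotic prophase whose zinc finger array reads DNA and whose trimethylation of H3K4 at the bound site marks where a double-strand break may form. DMC1 coats the single-stranded ends of the resected break, so its signal, called heat in the tables, reports the breaks that are present and not yet repaired. A binding site that is used over many generations tends to be lost from the genome that carries the allele, because repair copies the uncut homolog, and such a site is called eroded. In a hybrid, an eroded site is bound and cut on 1 homolog, whereas a site that is intact in both parents is cut on either. The tables give the share of DMC1 reads with the B6 version of their SNPs, without the number of reads. A hotspot was called matched when this share was 25 to 75%, ends included, cut on the non-B6 homolog below 25% and cut on the B6 homolog above 75%. The last 2 classes are together called one-sided.

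The sequence of the B6 homolog could be shown where both centers of a pair fell in the window of a RefSeq transcript start (250 bases before it to 50 after it), which held for 6 pairs. The 4 below were picked because they stand for different classes. Each is the 250 bases before the start, 5′ to 3′ on the strand of the gene, in RefSeq assembly GRCm38.p6. Capitals mark the stretch between the centers called in the crosses, or the part of it that lies before the start.
Gm31493, cut on the non-B6 homolog in both crosses: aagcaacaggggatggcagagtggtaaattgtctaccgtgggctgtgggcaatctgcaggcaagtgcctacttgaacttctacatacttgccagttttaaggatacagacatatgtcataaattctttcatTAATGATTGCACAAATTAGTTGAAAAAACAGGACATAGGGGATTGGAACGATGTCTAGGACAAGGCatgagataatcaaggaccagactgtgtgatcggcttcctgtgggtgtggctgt
Fabp7, matched in both: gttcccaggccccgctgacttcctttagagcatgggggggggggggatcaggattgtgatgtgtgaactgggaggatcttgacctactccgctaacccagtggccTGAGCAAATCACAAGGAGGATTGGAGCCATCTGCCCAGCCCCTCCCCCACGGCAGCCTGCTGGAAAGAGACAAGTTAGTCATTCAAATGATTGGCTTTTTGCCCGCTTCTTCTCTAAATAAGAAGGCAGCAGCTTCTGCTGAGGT
Gpld1, cut on the SPRT homolog and matched in STUS/B6: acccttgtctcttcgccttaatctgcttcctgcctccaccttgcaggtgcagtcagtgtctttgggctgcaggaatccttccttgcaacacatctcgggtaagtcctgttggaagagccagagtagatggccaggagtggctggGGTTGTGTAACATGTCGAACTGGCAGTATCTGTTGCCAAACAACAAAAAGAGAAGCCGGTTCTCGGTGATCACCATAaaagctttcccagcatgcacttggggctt
Gm36841, cut on the B6 homolog in B6/SPRT and matched in STUS/B6: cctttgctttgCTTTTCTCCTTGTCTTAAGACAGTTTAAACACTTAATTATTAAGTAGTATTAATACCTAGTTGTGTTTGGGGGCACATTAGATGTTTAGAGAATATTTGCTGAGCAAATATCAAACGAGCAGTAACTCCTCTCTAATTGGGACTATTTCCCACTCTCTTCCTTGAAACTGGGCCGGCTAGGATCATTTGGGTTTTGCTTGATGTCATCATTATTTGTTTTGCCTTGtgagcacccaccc

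The first stretch is chr1:160025764-160026013 (minus strand), upstream of the predicted gene Gm31493. Heat there was 317 in B6/SPRT and 390 in STUS/B6, and the B6 chromosome gave 11.6% and 1.80% of the DMC1 reads. The second, chr10:57784673-57784922 (plus strand), lies before Fabp7, which encodes a fatty acid binding protein of the brain. Its heat was 28.3 and 71.2, with 27.1% and 56.4% of reads from B6. The third, chr13:24942902-24943151 (plus strand), lies before Gpld1, which encodes a phospholipase that cleaves glycosylphosphatidylinositol anchors. Its heat was 59.9 and 33.1, with 10.4% and 36.4% from B6. At chr5:116406430-116406679 (plus strand), before the predicted gene Gm36841, heat was 11.2 and 41.1, and the B6 chromosome gave 100% of the reads against 60%. The H3K4me3 share from B6, measured in B6/SPRT only, was 28.9, 54.8, 54.1 and 93.2% at the 4 sites in this order. The printed B6 sequence is common to both crosses, and the SPRT and STUS sequences were not analysed here. Of all B6 hotspots, 9 centers in B6/SPRT and 14 in STUS/B6 lay in such windows.

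Most B6 hotspots of B6/SPRT were also called in STUS/B6, and a smaller majority of those in STUS/B6 were called in B6/SPRT. Of the 4122 hotspots in B6/SPRT, 3330 had a partner (80.8%, 95% Wilson interval 79.6 to 82.0%, 74.8 to 85.5% across the 19 autosomes). The same 3330 pairs were 54.5% of the 6115 hotspots of STUS/B6 (interval 53.2 to 55.7%, 46.6 to 64.0% across autosomes). These intervals, like all others here, cover counting over hotspots only, since there is no second library of either genotype. Among all autosomal hotspots, whatever their allele, 20% of those in B6/SPRT and 21.4% of those in STUS/B6 had a neighbor within 500 bp in the other table. These shares include the B6 hotspots, and of 3703 pairs of any allele 3330 had the B6 label in both crosses. Pairs were tight, with a median distance between centers of 59 bp and 64.5% within 100 bp. The widest pair was 497 bp apart and the unpaired B6/SPRT center nearest to a B6 center of STUS/B6 lay 506 bp from it. Because the authors assigned alleles by comparison with other mice, the allele label itself may depend on what those mice share.

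Strength separated the crosses. In STUS/B6 the paired share rose from 11.6% of the weakest 611 hotspots (heat 7.51 to 14.5) to 89.2% of the strongest 612 (heat 321 to 1102). In B6/SPRT it was 72.6% among the weakest 412 and 86.2% among the strongest 413. Among the strongest 2000 hotspots of each library, 65.1% were paired with one another.

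**Figure D1:**
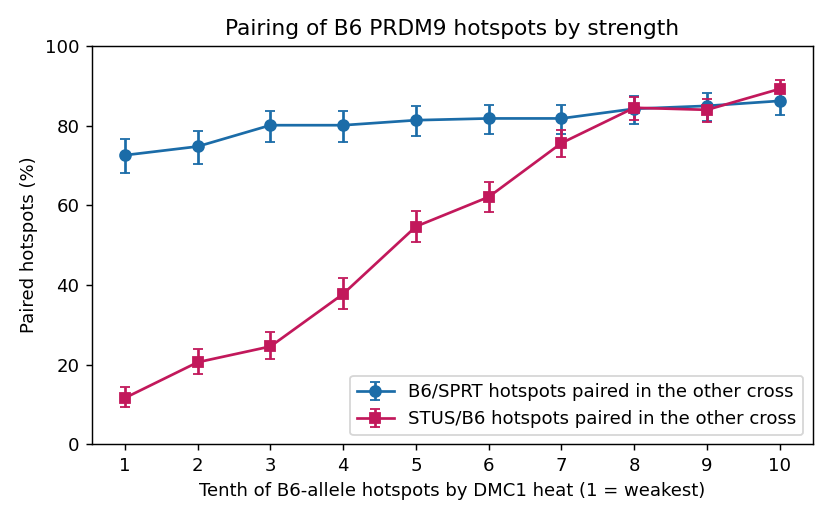
Percentage of B6 PRDM9 hotspots with a partner within 500 bp in the other cross, by bins of DMC1 heat that each hold 10% of a library's hotspots (bars, 95% Wilson intervals over hotspots). The share rises from 11.6 to 89.2% in STUS/B6 and from 72.6 to 86.2% in B6/SPRT.

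At the paired hotspots heat kept its order only in part. Spearman's coefficient was 0.67 across the 3330 pairs (0.57 to 0.79 on single autosomes), and Pearson's r of log2 heat was 0.65. Ranked among the pairs, 44.3% of hotspots stood within 10 percentile points of their place in the other cross, and 171 (5.14%) moved by more than 50 points. Of the strongest 333 pairs of B6/SPRT, 198 (59.5%) were also among the strongest 333 of STUS/B6. The scale of heat in relation to depth is not stated and the median log2 ratio of STUS/B6 to B6/SPRT was 1.18, so ratios are given relative to that median. By that measure 315 pairs (9.46%) lay at least 4-fold away, 121 hotter in STUS/B6 and 194 hotter in B6/SPRT. Over all pairs of any allele, most of them these B6 pairs, and centered in the same way, this was 11.5%.

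The pairs cut on the non-B6 homolog in both crosses that stood highest by summed heat rank were the following. The hotspot at position 65655101 of chromosome 3, 4.19 kb from Mir8120, ranked 1 of the B6 hotspots in B6/SPRT (heat 729) and 5 in STUS/B6 (heat 896). That at position 7652534 of chromosome 15 ranked 8 and 6, with heat of 575 and 854. The site at 12849835 of the same chromosome lay within the span of Drosha, which encodes the nuclease that processes primary miRNA transcripts, and ranked 12 and 19. The B6 chromosome gave between 0.183 and 1.18% of the DMC1 reads at these sites, which were picked for their class and rank. Of the H3K4me3 reads at these 3 sites in B6/SPRT, 7.03 to 10.8% came from it.

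At the extremes, single sites moved across almost the whole range. Those below are the 3 largest gains and 3 largest losses of percentile rank among 639 pairs in the strongest 10% of either library. The lowest heat of any B6 hotspot was 7.50 in B6/SPRT and 7.51 in STUS/B6, so their low values belong to weak calls. Within Myh11, the gene of a smooth muscle myosin heavy chain, heat was 9.57 in B6/SPRT and 393 in STUS/B6 (percentile ranks of 2.94 and 93.3 among the B6 hotspots of each library). The site within Cdh11, the gene of a cadherin, went from 12.3 to 435, and the site 19.2 kb from 1700057H15Rik from 8.59 to 348. In the other direction, heat within Prss16, the gene of a thymic serine protease, was 403 in B6/SPRT and 8.41 in STUS/B6. It was 297 and 11.7 within Gpc6, the gene of a glypican, and 404 and 15.3 within Kctd1. The 3 sites that were hot in STUS/B6 had 0 to 0.808% of reads from B6 in that cross. In B6/SPRT, H3K4me3 there came from B6 at 10.8% in Myh11, 44.7% near 1700057H15Rik and 53.8% in Cdh11. None of the 3 that were hot in B6/SPRT had a DMC1 fraction in that library.

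The homolog that was cut could be compared at the 1983 pairs with a B6 fraction in both libraries. At 1167 of them (58.9%, interval 56.7 to 61.0%) the hotspot was one-sided in both crosses, at 288 (14.5%, interval 13.0 to 16.1%) in B6/SPRT only, at 128 (6.45%, interval 5.46 to 7.62%) in STUS/B6 only and at 400 (20.2%, interval 18.5 to 22%) in neither. Of those one-sided in both, 1119 were so on the same side and 48 on opposite sides. Among all autosomal hotspots with a fraction, 71% were one-sided in B6/SPRT and 65.8% in STUS/B6, and among pairs of any allele 57.9% were one-sided in both. With 3 classes (non-B6, matched, B6), 76.6% of pairs (interval 74.7 to 78.4%, 65.4 to 80.6% across autosomes) had the same class in both, against 74.4% of pairs of any allele, of which the B6 pairs are the bulk. The larger count in B6/SPRT only than in STUS/B6 only depended on the limits. With matched set at 10 to 90% the shares were 11.4 and 13.0%, in the opposite order.

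The shared one-sided sites were almost all cut on the chromosome that did not come from B6. Of the 1208 pairs cut on the SPRT homolog in B6/SPRT, 1041 (86.2%, interval 84.1 to 88%) were cut on the STUS homolog in STUS/B6, 133 were matched there and 34 were cut on B6. These 1041 sites had medians of 3.45% of reads from B6 in B6/SPRT and 1.32% in STUS/B6. Read from the other cross, 92.9% of the 1120 sites cut on the STUS homolog (interval 91.3 to 94.3%) were cut on the SPRT homolog in B6/SPRT. Over all 1983 pairs the non-B6 homolog was cut at 60.9% in B6/SPRT and 56.5% in STUS/B6. Among all autosomal hotspots with a fraction, most of which belong to other alleles, it was 24.5 and 31%.

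A smaller part of the sites cut on the B6 homolog kept their class. Of the 247 pairs cut on the B6 homolog in B6/SPRT, 78 (31.6%, interval 26.1 to 37.6%) were so in STUS/B6, while 155 were matched and 14 were cut on the STUS homolog. Of the 175 cut on B6 in STUS/B6, the same 78 (44.6%, interval 37.4 to 52.0%) were cut on B6 in B6/SPRT and 63 were matched there. Over all 1983 pairs the B6 homolog was cut at 12.5% in B6/SPRT and 8.83% in STUS/B6. Among all autosomal hotspots with a fraction, which include those of the SPRT and STUS alleles, it was 46.5 and 34.8%. Matched sites lay between. Of the 528 matched in B6/SPRT, 400 (75.8%, interval 71.9 to 79.2%) were matched in STUS/B6, and these were 58.1% of the 688 matched there.

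**Figure D2:**
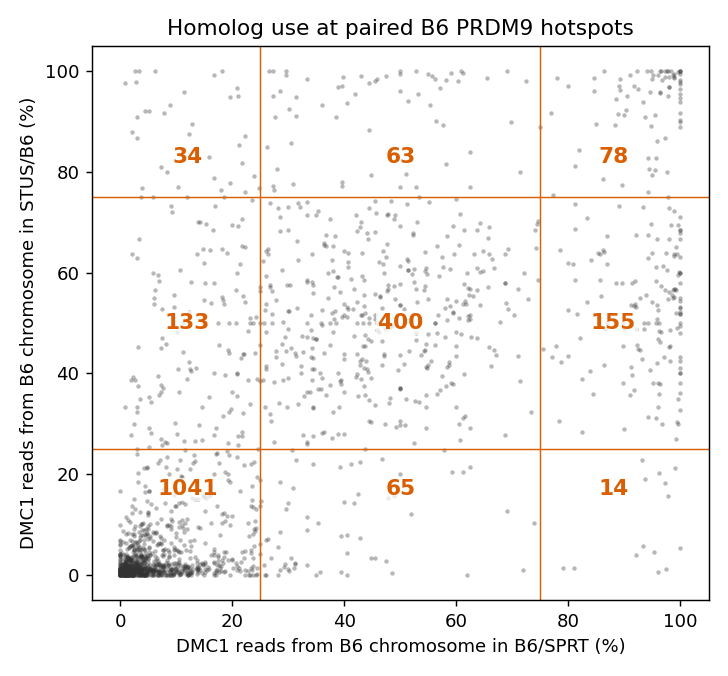
Percentage of DMC1 reads from the B6 chromosome at each of the 1983 B6 PRDM9 hotspots paired between B6/SPRT (horizontal) and STUS/B6 (vertical). Lines mark the limits of 25 and 75%, and the number in each field counts its hotspots, with 1041 in the corner cut on the non-B6 homolog in both crosses and 78 in the corner cut on B6 in both.

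Across these 1983 hotspots Spearman's coefficient of the B6 share was 0.75 and Pearson's r 0.70. The median difference, STUS/B6 minus B6/SPRT, was -0.64 percentage points, and the middle of the distribution ran from -8.02 to 5.42. Some hotspots lay near a limit, where a small shift in either library changes the class. Of the paired values, 8.63% in B6/SPRT and 3.98% in STUS/B6 lay within 5 points of 25%. Within 5 points of 75% it was 1.69 and 3.48%. The values next to the lower limit were 24.8% outside and 25% inside in both libraries, and those next to the upper limit 75.4% and 75%. Agreement of class varied with the distance of the centers, from 77.9% of pairs up to 100 bp apart to 63.7% (interval 54.5 to 72.0%) of the 113 pairs over 250 bp apart. By mean heat rank it was 72.9% in the weakest of 5 equal bins, 64.4% in the next and 92.7% in the strongest, where 83.9% of pairs were cut on the non-B6 homolog in both crosses.

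How far a class repeats when neither the allele nor the homologs change was read from the alleles that 2 libraries of 1 cross share. Hotspots of SPRT PRDM9 in B6/SPRT and Hum/SPRT, where a humanized allele replaces that of B6, had the same class at 94.6% of 6957 pairs (93.0 to 96.1% across autosomes). Hotspots of STUS PRDM9 in STUS/B6 and STUS/Hum had it at 91.0% of 3272 pairs (87.9 to 96.2% across autosomes). The share for B6 PRDM9 between the crosses, 76.6%, was below both on 19 of 19 autosomes. The sets were not matched for strength, and they differ in how many hotspots had a partner. Pairs held 98.7% of SPRT PRDM9 hotspots in B6/SPRT and 98.8% in Hum/SPRT. For STUS PRDM9 they held 39.2% in STUS/B6 and 94.2% in STUS/Hum. The part of these differences in the gap was not tested. Classes were aligned by whether the cut homolog came from the allele's own genome, which is the B6 homolog for B6 PRDM9 and the non-B6 homolog for the others. Sites cut on the other genome's homolog, the largest class of each allele, kept their class at 86.2% for B6 PRDM9, against 97.0% for SPRT (interval 96.5 to 97.5%) and 91.0% for STUS PRDM9 (interval 89.7 to 92.1%). Matched sites kept it at 75.8% against 93.0 and 92.8%. Sites cut on the allele's own genome kept it at 31.6%, against 84.4% for SPRT (interval 81.5 to 86.9%) and 84.0% for STUS PRDM9 (interval 78.2 to 88.5%). Read from the second library, these own-genome shares were 44.6% for B6, 89.6% for SPRT and 76.5% for STUS PRDM9. For matched sites they were then 58.1, 88.1 and 77.0%, and for the other genome's homolog 92.9, 98.5 and 99.5%. Heat itself repeated with a Spearman's coefficient of 0.96 for SPRT and 0.89 for STUS PRDM9, against 0.67 for B6 PRDM9 between crosses. No test was made, since each genotype has 1 library.

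**Figure D3:**
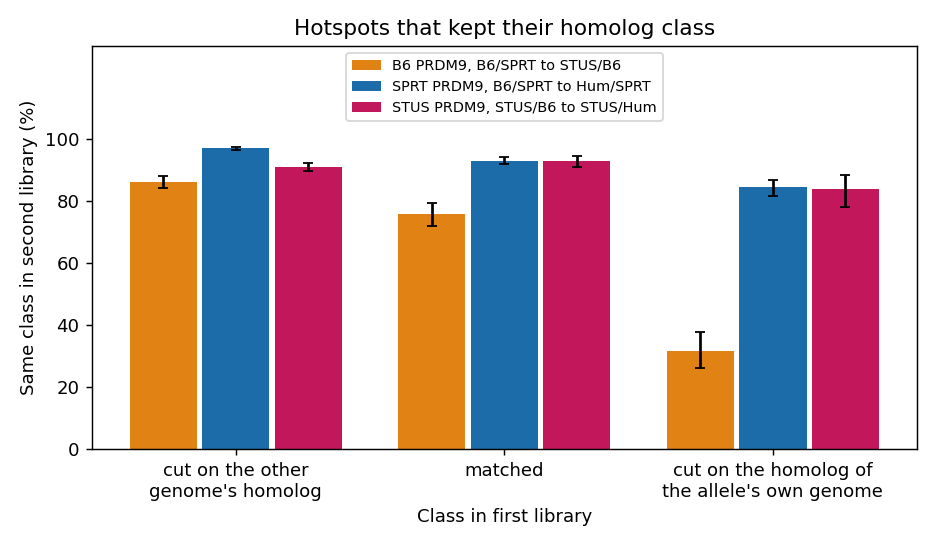
Percentage of paired hotspots with the same homolog class in the second library, by their class in the first, counted relative to the allele's own genome, for B6 PRDM9 between the crosses and for SPRT and STUS PRDM9 between libraries of the same cross (bars, 95% Wilson intervals over hotspots). Sites cut on the allele's own genome kept their class at 31.6% for B6 PRDM9, against 84.4 and 84.0% for the other alleles.

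The named sites show each pattern. Matched in both crosses, the strongest was within Ankfn1 at position 89611922 of chromosome 11, with heat of 420 in B6/SPRT and 1102 in STUS/B6, where it ranked 1, and with 54.9 and 41.6% of reads from B6. The next were within Nrg1, the gene of a growth factor that binds ERBB receptors (53.0 and 54.1% from B6), and within Nf1, the gene of the RAS inhibitor neurofibromin (39.5 and 51.2%). H3K4me3 at the 3 was 50.9 to 58.5% from B6. Cut on B6 in both, the strongest was at position 74226338 of chromosome 4, 16.2 kb from the histone demethylase gene Kdm4c, with 98.4 and 100% from B6 and heat of 174 and 269. A site 16.7 kb from Aggf1 had 98.9 and 98.6%.

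Sites cut on the B6 homolog in B6/SPRT and matched in STUS/B6 were led by 1 within Dlc1. It had 91.1% of reads from B6 in B6/SPRT and 41.4% in STUS/B6, with heat of 161 and 610. Within Fto, which encodes an RNA demethylase, the shares were 99.5 and 59.6%, and within Tmprss7, which encodes a membrane serine protease, 89.0 and 73.3%. H3K4me3 in B6/SPRT was 77.5, 95 and 75.1% from B6 at these sites. The converse, matched in B6/SPRT and cut on B6 in STUS/B6, was seen 37.2 kb from Ankrd50 (61.3 and 99.6%), within AW554918 (59.1 and 99.7%) and 5.19 kb from the noncoding RNA gene Rubie (44.8 and 79.3%).

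Some strong sites were cut on the non-B6 homolog in 1 cross only. At position 40487214 of chromosome 17, 32.8 kb from Esp8, the share from B6 was 7.34% in B6/SPRT and 27% in STUS/B6, close to the limit. Within Atp1b1, the gene of a sodium pump subunit, it was 19.9 and 32.9%, and 0.358 kb from Gm33651 it was 12.7 and 58.2%. Among sites matched in B6/SPRT and cut on the STUS homolog in STUS/B6, that within Pdzd2 had 25.7 and 1.91% and that within the deacetylase gene Sirt1 25.1 and 14.7%, although at the latter 72.2% of H3K4me3 reads in B6/SPRT were from B6. The third, in Emx2os, had 30.7 and 24.7%, so the B6/SPRT value or the STUS/B6 value of each lay near 25%. Opposite sides were seen 31.9 kb from 6430553K19Rik, with 2.67% from B6 in B6/SPRT and 100% in STUS/B6, and within Rbms1, with 4.43 and 92.0%. Within Phc3, a Polycomb group gene, the shares were 24.8 and 76.8%, each close to a limit. H3K4me3 in B6/SPRT was 34.1, 29.6 and 47.1% from B6 at these sites in the order given. The sites near 6430553K19Rik and in Rbms1 were of middle strength in STUS/B6, with percentile ranks of 59.8 and 58.5.

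Heat differed between the crosses along with the class. At the 155 sites cut on B6 in B6/SPRT and matched in STUS/B6, median heat was 24.0 and 123, and relative to all pairs the log2 ratio was 0.82 higher in STUS/B6 (0.40 to 1.47 for the middle 50%), with 135 of 155 above the median of all pairs. At the 133 sites cut on the SPRT homolog in B6/SPRT and matched in STUS/B6 it was -0.75, with 33 of 133 above that median. It was 0.76 at the 65 sites matched in B6/SPRT and cut on the STUS homolog, and -0.25 at the 63 matched in B6/SPRT and cut on B6 in STUS/B6. At the sites cut on opposite sides it was -1.64 for the 34 cut on the SPRT homolog and on B6 in STUS/B6, and 2.24 for the 14 cut on B6 and on the STUS homolog. Where both crosses had the same class, it was -0.07 for the non-B6 homolog, 0.20 for matched sites and 0.55 for the 78 sites cut on B6. Class and heat come from the same reads, so these are descriptions.

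**Figure D4:**
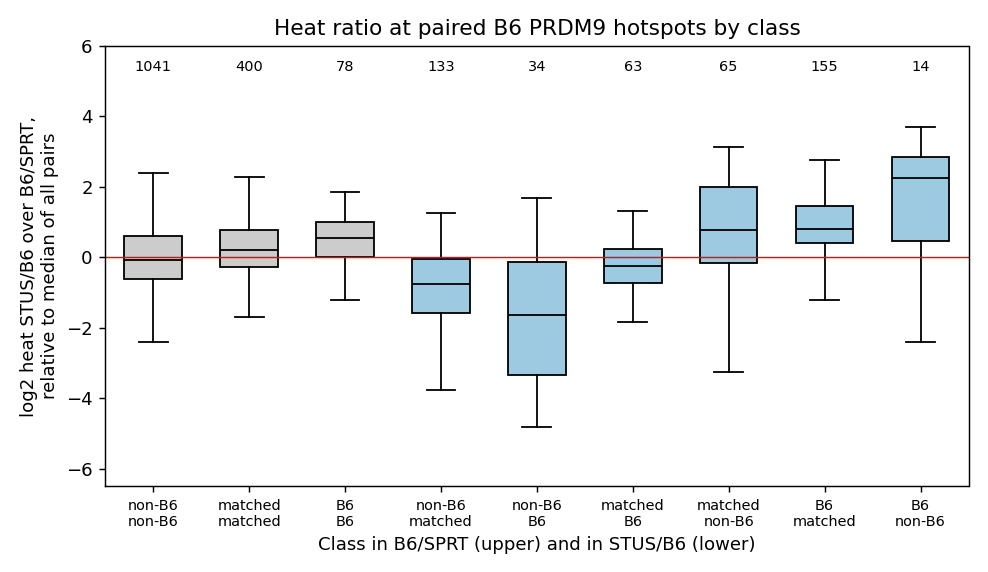
log2 ratio of DMC1 heat, STUS/B6 over B6/SPRT, minus its median over all pairs, for each combination of class in B6/SPRT (upper label) and STUS/B6 (lower label). Boxes span the middle 50%, lines mark medians, whiskers reach 1.5 box lengths at most, and numbers count pairs. Grey boxes have the same class in both crosses, and the 155 sites cut on B6 in B6/SPRT and matched in STUS/B6 have a median of 0.82.

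Splitting heat by the share of reads gave a part for each homolog. Across the 1983 pairs the part on the B6 homolog, the chromosome common to both crosses, had a Spearman's coefficient of 0.72 between them. The part on the other homolog, SPRT against STUS, had a Spearman's coefficient of 0.66, and total heat at the same pairs 0.68. At the 400 sites matched in both crosses these values were 0.73, 0.64 and 0.73. The share is from reads that carry SNPs, and the parts are not independent of the total.

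H3K4me3 ChIP-seq of B6/SPRT, with 2 ChIP and 2 input samples and 1 value per hotspot, gave a reading of binding that the DMC1 classes of STUS/B6 did not enter. H3K4me3 reads leaned to the SPRT homolog where STUS/B6 cut the STUS homolog: the median share from B6 was 25% at these 2008 sites, 57.0% at the 950 sites matched in STUS/B6 and 62.2% at the 229 cut on B6 there. Enrichment over input had medians of 6.16, 6.05 and 4.99 in the same order. Across 3187 pairs Spearman's coefficient between the H3K4me3 share in B6/SPRT and the DMC1 share in STUS/B6 was 0.71.

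The classes of the other cross also separated sites that DMC1 placed together in B6/SPRT. Among sites cut on the SPRT homolog, the median H3K4me3 share from B6 was 19.4% at the 1041 that STUS/B6 cut on the STUS homolog, 41.3% at the 133 it cut on both and 37.2% at the 34 it cut on B6. For those 133 sites the middle 50% ran from 31.5 to 48.6%, against 12.1 to 28.8% for the 1041. The DMC1 share from B6 in B6/SPRT had medians of 3.45% at the 1041, 14.3% at the 133 and 11.8% at the 34. Median heat in B6/SPRT was 47.9 at the 133 and 73.9 at the 1041. The parts of strength and of the DMC1 share in this difference were not tested. Among sites cut on B6 in B6/SPRT the H3K4me3 shares were 83.3 to 88.5% whatever the class in STUS/B6. Among matched sites they were 49.4% where STUS/B6 cut the STUS homolog, 55.6% where it was matched and 55.2% where it cut B6. Median DMC1 shares from B6 in B6/SPRT at these matched sites were 34.4, 45.1 and 45.8% in the same order.

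**Figure D5:**
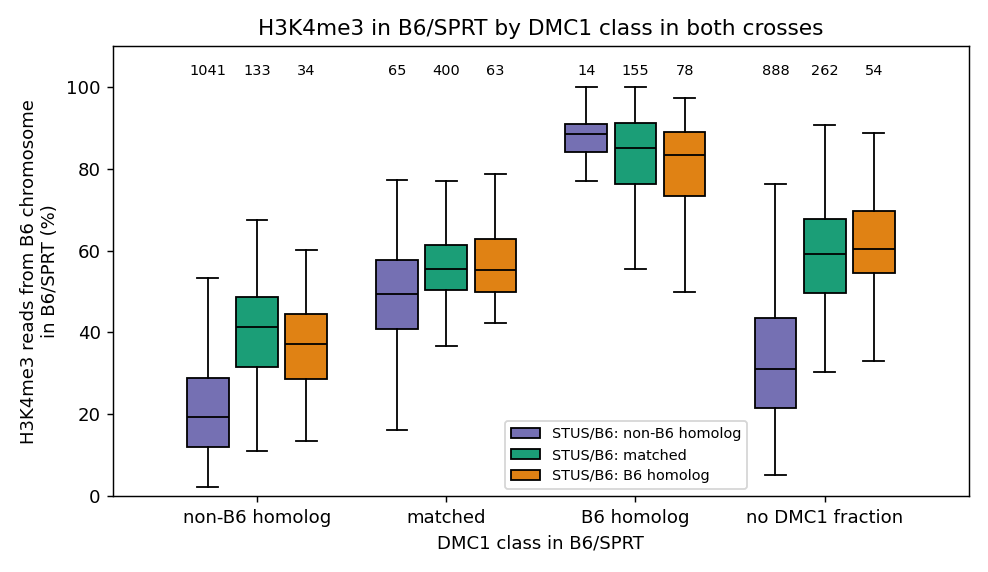
Percentage of H3K4me3 reads from the B6 chromosome in B6/SPRT, by DMC1 class in B6/SPRT (groups of boxes) and in STUS/B6 (colors). Boxes span the middle 50%, lines mark medians, whiskers reach 1.5 box lengths at most, and numbers count hotspots. Among hotspots without a DMC1 fraction in B6/SPRT the median is 31.1% where STUS/B6 cut the STUS homolog and 59.2% where it was matched.

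The other cross also gave a reading for B6/SPRT hotspots without a DMC1 fraction. A fraction was missing at 1581 of 4122 B6 hotspots in B6/SPRT (38.4%) and at 527 of 6115 in STUS/B6 (8.62%). In STUS/B6 the gaps were at weak sites, 35.2% of the weakest 611 and 0.817% of the strongest 612. In B6/SPRT they were not, with 36.2% of the weakest 412 and 43.3% of the strongest 413. Over all autosomal hotspots, whatever their allele, 13732 of 18522 in B6/SPRT and 15722 of 17309 in STUS/B6 had a fraction. For the B6 allele it was 2541 of 4122 and 5588 of 6115. Of the 1257 paired hotspots without a fraction in B6/SPRT, 1210 had one in STUS/B6, and 890 of these (73.6%, interval 71.0 to 76%) were cut on the STUS homolog. Where B6/SPRT had a fraction, 56.5% (interval 54.3 to 58.6%) were. Matched sites in STUS/B6 made up 21.8% of the former and 34.7% of the latter. The median H3K4me3 share from B6 in B6/SPRT differed little, at 39.4% for paired hotspots without a fraction and 38.7% for those with one. Median heat in B6/SPRT was 55.5 and 41.6 in the same order. The part of strength in the STUS/B6 shares was not tested.

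Paired hotspots without a DMC1 fraction had a median of 188 H3K4me3 reads with SNPs, and those with one had 199. An H3K4me3 share was missing at 7 of the 1257 without a fraction, 6 of them with 0 such reads, and at 0 of the 2073 with one. The number of SNP-carrying DMC1 reads is not given, so its part in the missing fractions was not tested. At the hotspots without a fraction, the median H3K4me3 share from B6 was 31.1% at 888 sites that STUS/B6 cut on the STUS homolog. It was 59.2% at 262 matched sites and 60.4% at 54 cut on B6, so these 2 classes were hardly told apart. Across 1204 of these hotspots Spearman's coefficient between the H3K4me3 share in B6/SPRT and the DMC1 share in STUS/B6 was 0.65, against 0.76 at the 1983 with a fraction.

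Hotspots called in 1 cross only made up 792 in B6/SPRT and 2785 in STUS/B6. Those of B6/SPRT were spread over the range of heat, with a median percentile rank of 41.4, and 57 were among the strongest 10%. Those of STUS/B6 were mostly weak, with a median rank of 27.9 and 66 among the strongest 10%. In the other table an unassigned hotspot lay within 500 bp of 125 of the 792 (15.8%, interval 13.4 to 18.5%), and no hotspot lay there for 667. For STUS/B6 the numbers were 42 and 2742, and 1 further hotspot had a B6 neighbor that was paired elsewhere. A hotspot of the SPRT or STUS allele was the nearest within 500 bp for 0 of them. The authors assigned alleles by comparison with mice that carry different alleles, so this 0 may follow from the labels alone.

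In both crosses strong hotspots without a partner were mostly cut on the non-B6 homolog. Among those in the upper of 3 equal bins of heat, 122 of 127 in B6/SPRT with a fraction were cut on the SPRT homolog (96.1%, interval 91.1 to 98.3%), against 83.2% of paired ones (interval 80.2 to 85.9%). In STUS/B6 it was 270 of 307 on the STUS homolog (87.9%, interval 83.8 to 91.1%), against 77.7% (interval 75.6 to 79.6%). In the lowest bin the crosses went opposite ways. Unpaired sites were cut on the non-B6 homolog at 53.7% (interval 46.8 to 60.5%) against 36.1% of paired ones in B6/SPRT, but at 18.6% (interval 16.6 to 20.9%) against 40.9% in STUS/B6, where 59.6% were matched. Over all strengths, 70.7% of unpaired sites with a fraction in B6/SPRT and 33.5% in STUS/B6 were cut on the non-B6 homolog, and 16.0 and 49.2% were matched. Weighted by heat, the non-B6 shares were 87.1 and 64.0%.

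The strongest B6/SPRT site with no B6 partner lay at position 9063924 of chromosome 10, 35.7 kb from Gm51794, with heat of 576 and 0.384% of reads from B6. The next was in Pga5, a pepsinogen gene (heat 538, 2.88% from B6), and both had an unassigned hotspot within 500 bp in STUS/B6. The third, at position 127603461 of chromosome 10 within Lrp1, the gene of a lipoprotein receptor, had none, with heat of 475 and 1.12% from B6. At these 3 sites 6.23 to 10.1% of H3K4me3 reads came from B6. In STUS/B6 the strongest without a partner were within Eya4 (heat 832, 1.05% from B6), Zdhhc14 (775, 0.593%) and Phtf2 (753, 0.685%), and no hotspot of any allele was called near them in B6/SPRT.

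Unpaired B6/SPRT hotspots had somewhat less H3K4me3 than paired ones. Median enrichment was 5.07 (middle 50% 3.25 to 7.73) against 6.08 (3.97 to 8.89), and the share of reads from B6 was 34.0 against 38.9%. Within 5 equal bins of heat, enrichment was lower at unpaired sites in 5 of 5, by 0.0955 to 0.712, and the B6 share was lower in 5 of 5, by 3.38 to 7.77 percentage points. The distributions overlap widely. Across single autosomes the difference of the median B6 share had an SD of 6.12 points, above its size of 4.85 over all autosomes. For enrichment the SD was 0.752, against a difference of 1.01.

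Position relative to genes differed little with pairing in B6/SPRT. Centers lay within the span of a protein-coding gene at 56.3% of paired and 56.2% of unpaired sites, against 53.4% of all its autosomal hotspots. In STUS/B6 it was 56.2% of paired (interval 54.6 to 57.9%) and 49.1% of unpaired sites (interval 47.3 to 51.0%), against 52.1% of all.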

How the data were processed

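DMC1 SSDS and H3K4me3 ChIP-seq were made from whole testis. The submitters' processing notes name BWA and the build mm10. Per the study's methods, single-stranded sequences were identified, hotspots called de novo, alleles assigned by comparison with other mice, and reads assigned to homologs by SNPs. The authors deposited, for each hotspot, a DMC1 signal (heat), whose scaling to depth is not stated, and the fraction of reads carrying the B6 version, without read numbers, so depth is unknown. For H3K4me3 in B6/SPRT the authors deposited counts of SNP-carrying reads, a ratio of enrichment over input, and a fraction from the B6 chromosome, each taken as pooled over samples. Tables were matched to genotypes by the alleles they name. A further 25 value columns (p-values, a sharing mark, ChIP and input coverage, H3K4me3 of other genotypes) were not used.

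From these files, autosomal B6 hotspots were paired (mutually nearest centers within 500 bp), ranked by heat within each library and classed at 25 and 75%, in Python 3.11.15 (tables with pandas 2.3.3, arrays with numpy 2.4.6, rank correlation and intervals with scipy 1.17.1, plots with matplotlib 3.10.9). With 1 library per genotype no test was made; 95% Wilson intervals describe counting over hotspots only, and ranges over autosomes describe spread within a library. Gene spans and upstream sequences are from RefSeq, GRCm38.p6, without pseudogenes. Named hotspots are, for each combination of classes with at least 20 pairs, the 3 with the lowest sum of heat ranks, the 3 strongest called in 1 cross only, and the 3 largest gains and losses of percentile rank among pairs in the strongest 10% of either library; not all are described. The members and rules were chosen with earlier results of these data known. Pairing, classes and intervals were tested on simulated data. Alternatives covered the pairing distance, the class limits, weighting, strength, allele labels and the X chromosome.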

Additional observations from a re-analysis of the deposited data

How the results depend on the processing

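Of 85 values recomputed under alternatives, 42 stayed within the interval, or within 1 SD over autosomes, of the value reported, and 43 moved further. None changed sign. A pairing distance of 250 bp gave 76.1% of B6/SPRT and 51.3% of STUS/B6 hotspots paired. A partner of any allele label gave 83.8% for B6/SPRT, and the strongest 2000 hotspots 65.1% for both. Spearman's coefficient of heat was 0.73 at pairs matched in both crosses, and 35.2% of pairs stood within 10 percentile points when ranked among all B6 hotspots against 44.3% when ranked among the pairs, the latter chosen after seeing the data. In the following, shares are one-sided in both, in B6/SPRT only, in STUS/B6 only and in neither. With matched at 10 to 90% they were 42.5, 11.4, 13.0 and 33.1%, and at 40 to 60% they were 75.2, 12.6, 6.76 and 5.50%, with 72.2% in the same class. Weighting pairs by DMC1 signal gave 73.5, 9.59, 3.89 and 13.0%, with 84.6% in the same class. The stronger 50% of both libraries gave 74.5, 9.69, 3.56 and 12.2%, with 85.5%. Chosen after seeing the data, the strongest 10% of either library gave 85.2, 6.15, 1.96 and 6.70%, with 89.9%, and pairs whose H3K4me3 and DMC1 classes in B6/SPRT are the same gave 53.7, 9.75, 8.62 and 27.9%, with 80.4%. For hotspots called in 1 cross only, limits of 10 and 90% gave 52.4% cut on the non-B6 homolog and 38.2% matched in B6/SPRT, and 23.8 and 66.3% in STUS/B6. Weighting by heat gave 87.1 and 8.24%, and 64.0 and 27.1%. The cause of these shifts was not tested.

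No paired analysis was possible because no result comes from a test, and the H3K4me3 samples that share replicate numbers have 1 pooled column. For the same reason leaving out replicates was not run. The planned search for letters at hotspot centers was not run, as no genome was used here. The unknown number of reads behind each DMC1 fraction limits how firmly a class is known at weak hotspots.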
